A study of Mus musculus with 30 samples.

Results

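The ascending and the descending colon were compared in mice with a deletion of the enzymes that make the core 1 and core 3 O-glycans of the intestinal epithelium. The 8 ascending and 8 descending mutant libraries were taken by the region and genotype in their labels. They were 16 of the 30 RNA-seq libraries of the series, and the other 14 were controls, with 7 libraries in each region. Differences are given as ascending minus descending, so that a positive value means a higher level in the ascending colon.

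The mutants were C1galt1f/f;VillinCre-ERT2;C3GnT-/- mice, and the genotype label of the libraries from both regions was TM-DKOAsc. C1galt1 encodes the transferase that makes core 1 O-glycans, and C3GnT, whose gene symbol is B3gnt6, makes core 3 O-glycans. The Villin promoter limits the tamoxifen-inducible Cre to intestinal epithelial cells, so that other cells keep C1galt1, whereas B3gnt6 is absent from every cell. The controls were littermates labelled Control and described as WT. Per the labels' protocols, mutants and WT littermates were dosed on 5 days with 0.5 mg of tamoxifen (about 20 mg/kg) and were analysed 5 or 10 days after the last dose, without a statement of which day applies to which library. The protocols speak of a deficiency induced in either region, and the sources used here do not say how far C1galt1 was deleted in each region of these mice. Region and extent of deletion therefore cannot be told apart within the mutants. All mice were female and shared 1 microbiota. In each region, 3 mutant libraries came from cage A (3.4 months old, C57BL/6 Background), 2 from cage B (2.6 months) and 3 from cage C (3.2 months), and cages B and C were labelled as Mixed, from BL/6 and 129SvJ. Cage, strain label and age cannot be told apart. The labels do not say which ascending and descending pieces came from the same mouse, so p-values measure the spread between these libraries.

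The ascending colon receives the contents of the caecum and has tall folds, a dense microbiota and a large share of the absorption of bile acids and electrolytes that is left to the large intestine. The descending colon takes up the remaining sodium and water and completes the pellet. Position along the gut is laid down in the embryo by homeobox genes of the Hox and Cdx families, and adult epithelium and mesenchyme keep much of that code. Core 1 and core 3 structures are the bases on which the long sugar chains of Muc2 and of transmembrane mucins are extended, sialylated, fucosylated and sulfated.

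Each library was represented by FPKM (fragments scaled to gene length and to the mapped total) of 14475 genes. The estimated depth, in M reads (M for mega), ran from 1.43 to 7.76 M in ascending mutants and from 6.50 to 8.85 M in descending mutants, and the 3 ascending mutant libraries of cage A had the lowest estimates, 1.43 to 1.59 M. Between 345 and 1532 genes were listed at 0 in ascending mutants, against 209 to 660 in descending mutants. The first principal component held 53.8% of the variance and separated the regions without overlap. On the second, which held 18.5%, descending mutant C1 and ascending mutant B1 stood farthest towards one end (scores of -66.6 and -38.6) and descending mutant A3 towards the other (42.8). The colon epithelial marker Krt20 was present in all 16 libraries, at 652 to 1006 FPKM (median 830.1) in ascending mutants, against 206 to 474 FPKM (median 328) in descending mutants. The distal marker Hoxd13 was listed at 0 in all 8 ascending mutant libraries and lay at 41.1 to 97.7 FPKM in the descending ones, so that this marker did not go against the region labels. B3gnt6 stayed at or below 0.53 FPKM in ascending mutants and at or below 0.06 FPKM in descending mutants, and it was not tested because of its low mean. In controls it lay at 0.11 to 19.5 FPKM (median 0.45) in the ascending and 0 to 0.43 FPKM (median 0.06) in the descending colon, so its FPKM overlapped between the genotypes. C1galt1 lay at 18.3 to 34.3 FPKM (median 28.8) in ascending mutants, against 14.6 to 36.7 FPKM (median 30.6) in descending mutants, with overlap and no difference past the threshold (-0.07 ± 0.15, adjusted p = 0.743). Its range in controls was 21.5 to 45.7 FPKM in the ascending and 27.98 to 38.7 FPKM in the descending colon, so the FPKM of the whole gene did not separate the genotypes.

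A large part of the transcriptome differed between the regions. Of 12203 genes that averaged 0.5 FPKM or more, 1748 (14.3%) were higher and 3620 (29.7%) were lower in the ascending colon at a Benjamini-Hochberg adjusted p under 0.05 (limma on log2(FPKM + 1), with cage as a covariate). This split of calls depended on the scale: with median-of-ratios scaling of the FPKM it was 2320 higher and 2293 lower, and with quantile normalization 2097 higher and 2282 lower. The median log2 difference of all genes tested was -0.16 on the deposited scale, -0.03 with median-of-ratios scaling and -0.04 with quantile normalization. The 20 most abundant genes took 16.5 to 21.3% of all FPKM in ascending mutants, against 7.24 to 14.3% in descending mutants, and their part in the shift was not tested. Changes of at least 2-fold on the log2(FPKM + 1) scale were found in 574 genes (4.70%) that were higher and 589 genes (4.83%) that were lower, and 571 and 586 of them had the same direction in all 3 cages. This split moved with the scale too, to 695 higher and 479 lower with median-of-ratios scaling, 656 and 510 with quantile normalization, and 807 and 994 with a pseudocount of 0.1. For 686 genes (5.62%) every ascending library lay above every descending one, and for 887 genes (7.27%) below. Counts in the gene lists that follow are to be read against these shares of all genes tested, and a list near them does not stand apart from the rest. In RNA of mixed cells, fewer cells of a type and less RNA per cell cannot be told apart.

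The 12 genes with the largest rises in the ascending colon had various roles. Reg3b, a bactericidal lectin, lay at 46.03 to 1070.5 FPKM (median 357) in ascending mutants, against 0 to 0.54 FPKM (median 0) in descending mutants. Its close relative Reg3g lay at 18.8 to 238 FPKM (median 72.7) in ascending mutants, against 0 to 0.51 FPKM (median 0.165) in descending mutants. Neither gene overlapped between regions (8.05 ± 0.55, adjusted p = 5.76e-09, and 5.69 ± 0.41, adjusted p = 1.00e-08), both varied more than 10-fold among ascending libraries, and as close paralogs they may share some reads. Fabp2, the intestinal fatty acid binding protein, lay at 474 to 1397 FPKM (median 919) in ascending mutants, against 2.75 to 74.2 FPKM (median 5.65) in descending mutants. The highest descending values, in 2 libraries of cage A, stayed far below the lowest ascending one (6.53 ± 0.41, adjusted p = 1.43e-09). Isx, a homeobox repressor of vitamin A and carotenoid uptake, lay at 155 to 254 FPKM (median 199.9) in ascending mutants, against 0 to 1.97 FPKM (median 0.745) in descending mutants. It was thus near 0 in every descending library (6.83 ± 0.22, adjusted p = 3.38e-13). Slc51a, the alpha subunit of the basolateral bile acid exporter, lay at 33.8 to 56.7 FPKM (median 51.4) in ascending mutants, against 0 to 0.13 FPKM (median 0) in descending mutants. Only 1 of the 8 descending libraries listed it above 0 (5.62 ± 0.09, adjusted p = 1.82e-16). The other genes in this group were Sptssb (6.89), which encodes a small subunit of serine palmitoyltransferase, Prap1 (6.55), a secreted lipid-binding protein, Apol10a (6.14), an apolipoprotein L family member, Tmigd1 (6.01), an epithelial adhesion molecule, Osr2 (5.54), a zinc finger transcription factor, and the cytochromes Cyp2c65 (5.47) and Cyp4b1 (5.45), with the log2 difference in brackets. Their adjusted p ran from 2.41e-16 for Osr2 to 1.35e-10 for Tmigd1, and none overlapped between regions.

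The 12 largest falls likewise included position factors, an ion pump and secreted proteins. Sval1, a member of the seminal vesicle antigen family, lay at 0 to 0.36 FPKM (median 0) in ascending mutants, against 87.6 to 779 FPKM (median 387) in descending mutants. Tgm3, a transglutaminase that cross-links proteins, Muc2 among them, lay at 0.16 to 2.1 FPKM (median 0.9) in ascending mutants, against 339 to 918 FPKM (median 454) in descending mutants. In both genes all ascending libraries stayed at or below 2.10 FPKM and all descending libraries were far above them (-8.32 ± 0.32, adjusted p = 3.56e-12, and -8.02 ± 0.25, adjusted p = 2.04e-13). Atp12a, the colonic proton-potassium pump, lay at 0 to 0.51 FPKM (median 0) in ascending mutants, against 148 to 429 FPKM (median 200.3) in descending mutants. B3gnt7, a transferase that lengthens poly-N-acetyllactosamine chains, lay at 2.23 to 9.51 FPKM (median 5.09) in ascending mutants, against 213 to 412 FPKM (median 331) in descending mutants. Both were separate in all libraries (-7.57 ± 0.17, adjusted p = 1.97e-15, and -5.76 ± 0.23, adjusted p = 6.37e-12). Mptx1, the mucosal pentraxin, was the least even of the group, at 0 to 30.6 FPKM (median 5.35) in ascending mutants, against 299 to 3191 FPKM (median 643) in descending mutants (-7.48 ± 0.71, adjusted p = 3.02e-07). The 3 ascending libraries of cage A, which had the lowest depth, listed it at 0. The group also held Hoxb13, Hoxd13 and Hoxa13, described below, and Ly6g (-6.67), Insl5 (-5.51), Sycn (-4.78), the granule protein syncollin, and Thbs4 (-4.57), a thrombospondin of the extracellular matrix.

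**Figure D1:**
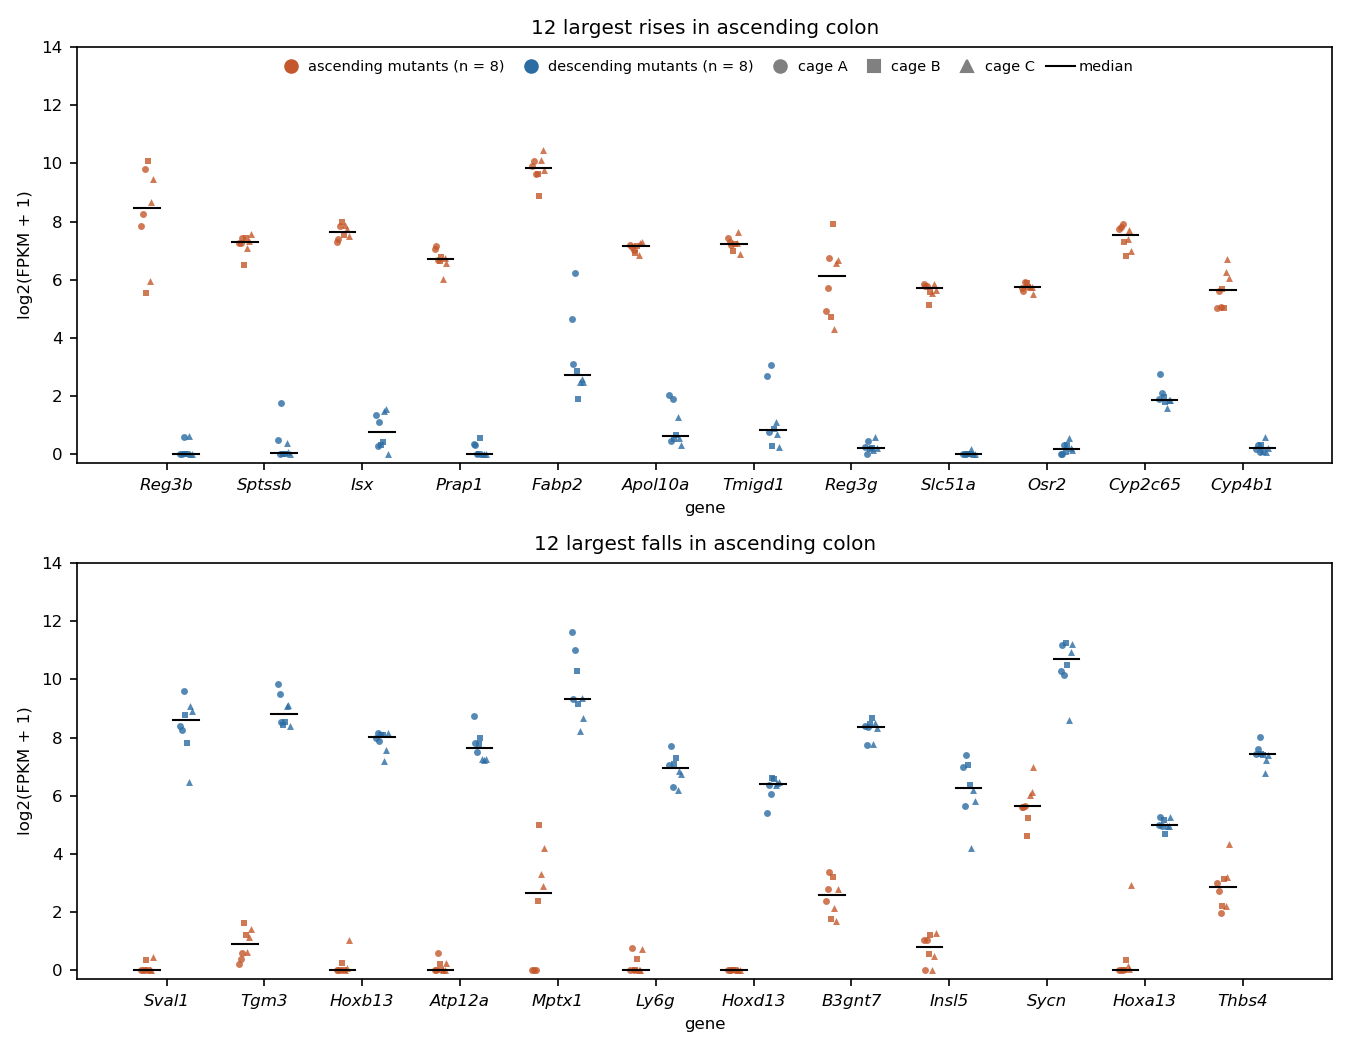
Level of the 12 genes with the largest rises (upper panel) and the 12 with the largest falls (lower panel), as log2(FPKM + 1) on the vertical axis, with 1 point per mutant library, ascending left of descending, the cage as the marker shape and the median as a line. For all 24 genes the 8 ascending libraries lie on one side of the 8 descending ones.

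Promoters of 4 of these genes are shown because they hold letters that position or epithelial factors are known to read, and because 2 of the genes were among the largest rises and 2 among the largest falls. The sequences are the 250 bases before the transcription start in RefSeq on build GRCm38.p6, 5′ to 3′ on the strand of the gene, and capitals mark a match to CNATAAA (the core read by Cdx and posterior Hox proteins), CAAAGTNCA (a form of the HNF4 site) or AGATAA (the GATA core) on either strand. The windows are Fabp2 at chr3:122894822-122895071 (plus strand), Cyp2c65 at chr19:39060756-39061005 (plus strand), Tgm3 at chr2:130012090-130012339 (plus strand) and B3gnt7 at chr1:86302971-86303220 (plus strand).
Fabp2: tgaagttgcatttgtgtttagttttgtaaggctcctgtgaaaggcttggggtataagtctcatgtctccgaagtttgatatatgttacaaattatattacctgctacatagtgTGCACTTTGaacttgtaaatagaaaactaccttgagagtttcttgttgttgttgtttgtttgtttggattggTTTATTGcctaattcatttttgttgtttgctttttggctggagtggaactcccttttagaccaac
Cyp2c65: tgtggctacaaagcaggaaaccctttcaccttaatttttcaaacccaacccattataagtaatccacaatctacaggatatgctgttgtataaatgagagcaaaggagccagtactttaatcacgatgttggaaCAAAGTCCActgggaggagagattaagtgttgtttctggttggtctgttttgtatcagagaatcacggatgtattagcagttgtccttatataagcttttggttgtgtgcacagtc
Tgm3: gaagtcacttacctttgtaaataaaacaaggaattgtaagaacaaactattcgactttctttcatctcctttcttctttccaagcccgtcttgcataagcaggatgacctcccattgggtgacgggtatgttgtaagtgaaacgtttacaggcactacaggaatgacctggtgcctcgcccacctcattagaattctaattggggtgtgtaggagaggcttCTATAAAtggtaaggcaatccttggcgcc
B3gnt7: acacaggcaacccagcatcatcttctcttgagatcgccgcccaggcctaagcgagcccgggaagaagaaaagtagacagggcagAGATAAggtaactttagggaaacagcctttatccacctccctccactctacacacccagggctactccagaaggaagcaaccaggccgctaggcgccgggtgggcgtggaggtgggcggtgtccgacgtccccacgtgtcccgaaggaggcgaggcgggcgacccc
Fabp2 holds 1 match to the HNF4 letters and 1 to the Cdx and Hox letters, Cyp2c65 holds 1 to the HNF4 letters, Tgm3 holds 1 to the Cdx and Hox letters, which there also read as a TATA box, and B3gnt7 holds 1 to the GATA letters. An entry was found for 21 of the 24 genes with the largest changes and for 9656 of the 12203 genes tested. Several of the 21, among them Reg3b, Isx, Slc51a, Sval1, Hoxd13 and Hoxa13, held no match to any of these letters. The 4 promoters shown are thus a selection. CNATAAA stood in 10.18% of the promoters of genes at least 2-fold higher, 8.43% of those at least 2-fold lower and 6.26% of all promoters of tested genes. CAAAGTNCA stood in 2.49, 1.11 and 0.99% of the same sets, and AGATAA in 9.05, 7.1 and 5.94%. CNATAAA includes CTATAAA, the TATA box letters seen in Tgm3, so its shares do not count Cdx and Hox sites alone. None of these shares was tested.

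The Hox genes changed in a pattern that followed their clusters. Of 26 members tested, 11 were higher and 15 lower in the ascending colon, against 14.3% and 29.7% of all genes, and the median difference was -0.93. All 9 tested genes of the A cluster were lower, from -0.55 for Hoxa11 to -4.60 for Hoxa13. In the B cluster the 7 genes from Hoxb3 to Hoxb9 were higher and the last, Hoxb13, was lower. In the D cluster Hoxd3, Hoxd4 and Hoxd8 were higher and the 5 genes from Hoxd9 to Hoxd13 were lower. The single member of the C cluster tested, Hoxc6, was higher (0.95 ± 0.13, adjusted p = 1.98e-05). With median-of-ratios scaling and with quantile normalization 11 members were higher and 14 lower.

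Hoxb13 lay at 0 to 1.04 FPKM (median 0) in ascending mutants, against 146 to 286 FPKM (median 261) in descending mutants. Hoxa13 lay at 0 to 6.56 FPKM (median 0.02) in ascending mutants, against 24.9 to 38.04 FPKM (median 30.6) in descending mutants. Ascending mutant C3 held the highest ascending value of both genes, and the regions did not overlap in either (-7.72 ± 0.17, adjusted p = 1.97e-15, and -4.60 ± 0.32, adjusted p = 6.43e-09). Hoxd13 differed by -6.29 ± 0.13 (adjusted p = 8.24e-16). In the other direction, Hoxb8 lay at 11.5 to 29.5 FPKM (median 17.1) in ascending mutants, against 0.05 to 0.92 FPKM (median 0.245) in descending mutants. Hoxb6, the most abundant member in the ascending colon, lay at 56.3 to 176 FPKM (median 73.1) in ascending mutants, against 1.1 to 24.5 FPKM (median 8.45) in descending mutants. Hoxb8 and Hoxb6 were separate in all libraries (3.81 ± 0.16, adjusted p = 1.23e-11, and 3.40 ± 0.36, adjusted p = 1.19e-06). Hoxb9, next to the boundary, lay at 31.3 to 51.8 FPKM (median 41.5) in ascending mutants, against 22.5 to 46.4 FPKM (median 28.1) in descending mutants, with overlap and a small difference (0.44 ± 0.14, adjusted p = 0.0207). Genes within a Hox cluster lie close together and overlap antisense transcripts. Neither labels nor headers state whether counting used strand, so reads of overlapping genes may be shared.

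**Figure D2:**
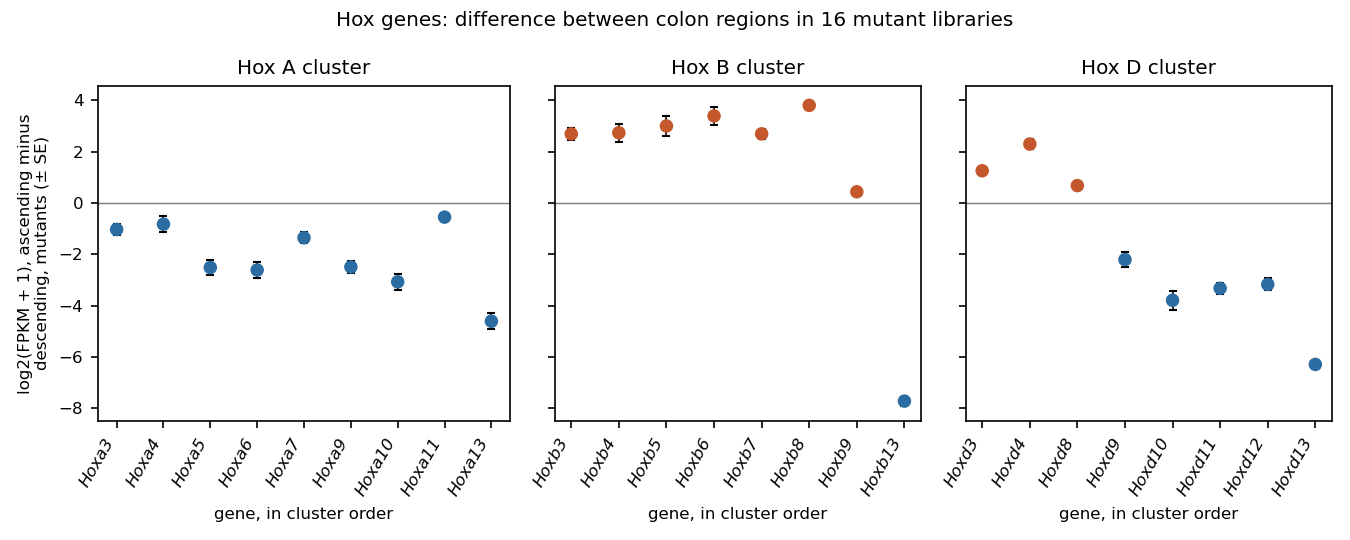
Log2 difference in log2(FPKM + 1), ascending minus descending, with its standard error, for the tested Hox genes of the A, B and D clusters in order along each cluster, over 16 mutant libraries (orange, higher in ascending; blue, lower). The B and D clusters change sign between the front and the rear genes, and the A cluster lies below 0 throughout.

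Other identity factors fell into those that were regional and those that were not. Of 30 tested, 9 were higher, 6 lower and 15 not past the threshold (median 0.12). Cdx2, the homeobox factor of the intestine, lay at 126 to 208 FPKM (median 169.9) in ascending mutants, against 3.93 to 47.6 FPKM (median 14.9) in descending mutants. Its relative Cdx1 lay at 152 to 285 FPKM (median 220.4) in ascending mutants, against 126 to 299 FPKM (median 235) in descending mutants. Cdx2 did not overlap between regions (3.35 ± 0.33, adjusted p = 4.96e-07), and Cdx1 overlapped (-0.12 ± 0.18, adjusted p = 0.622). The T-box factor Tbx3 (3.71 ± 0.13, adjusted p = 1.30e-12) and the nuclear receptors Ppara (2.38 ± 0.12, adjusted p = 1.02e-10) and Pparg (1.89 ± 0.09, adjusted p = 1.00e-10) were also higher without overlap. Esrrg, an oestrogen-related receptor, was lower (-2.26 ± 0.13, adjusted p = 3.60e-10), as were Zfhx3 (-1.50), Nr1i3 (-1.25), Sox9 (-1.03) and Klf5 (-0.60). Hnf4a (-0.07 ± 0.11, adjusted p = 0.646), a nuclear receptor of the whole intestinal epithelium, did not pass.

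Ion and water transport differed in kind between the regions. Of 37 genes tested, 9 were higher and 15 lower (median -0.13). Of the epithelial sodium channel, the gamma and the alpha subunit were lower in the ascending colon. Scnn1g, the gamma subunit, lay at 0 to 0.1 FPKM (median 0) in ascending mutants, against 2.02 to 24.02 FPKM (median 4.32) in descending mutants (-2.56 ± 0.27, adjusted p = 1.13e-06). Scnn1a, the alpha subunit, lay at 15.3 to 26.8 FPKM (median 19.7) in ascending mutants, against 47.4 to 96.96 FPKM (median 74.01) in descending mutants. It did not overlap (-1.71 ± 0.15, adjusted p = 9.24e-08), and the beta subunit Scnn1b missed the threshold (-0.52 ± 0.23, adjusted p = 0.0783), with 0.46 in cage A, -0.86 in cage B and -1.27 in cage C. Fxyd4, a regulator of the sodium pump, was listed at 0 in all 8 ascending mutant libraries and lay at 5.4 to 39.1 FPKM (median 24.2) in the descending ones (-4.46 ± 0.26, adjusted p = 6.77e-10). Slc9a3, the sodium-proton exchanger NHE3, went the other way at 62.5 to 121 FPKM (median 104) in ascending mutants, against 2.67 to 64.2 FPKM (median 8.89) in descending mutants, with overlap through 1 descending library (3.02 ± 0.46, adjusted p = 6.52e-05). Anion exchange was divided too: Slc4a2 was higher (1.42 ± 0.11, adjusted p = 3.24e-08), and Slc26a3, the apical chloride-bicarbonate exchanger, was lower (-1.97 ± 0.27, adjusted p = 2.35e-05). The anion channel Best2 of goblet cells (-3.57 ± 0.16, adjusted p = 2.81e-11), the protease Tmprss2 (-2.26 ± 0.12, adjusted p = 2.29e-10) and the water channel Aqp8 (-1.90 ± 0.46, adjusted p = 0.00333) were lower. Aqp8 differed by -3.39 in cage A, -1.80 in cage B and -0.47 in cage C.

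The carbonic anhydrases and the guanylin system included abundant transcripts that differed. Car1, which hydrates carbon dioxide in the colonocyte cytosol, lay at 6994 to 12335 FPKM (median 10741) in ascending mutants, against 429 to 2040.1 FPKM (median 1124) in descending mutants. The lowest ascending library was above the highest descending one (3.29 ± 0.29, adjusted p = 1.35e-07). Of 9 carbonic anhydrases tested, 5 were higher, Car8 (3.83), Car1, Car12 (3.25), Car13 (0.80) and Car9 (0.22), and 1 was lower, the membrane-bound Car4 (-0.80 ± 0.21, adjusted p = 0.00494). Without cage C 3 were higher and 2 lower. Without cage A 4 were higher and 0 lower, so that the call of Car4 as lower was lost. Guca2a, the peptide guanylin, lay at 2603 to 4717 FPKM (median 3173) in ascending mutants, against 144 to 1275 FPKM (median 541) in descending mutants. Guca2a, its sister peptide Guca2b, their receptor Gucy2c and the cGMP-dependent kinase Prkg2 were all higher without overlap, by 2.70 ± 0.34 (adjusted p = 7.20e-06), 1.63 ± 0.30 (adjusted p = 3.65e-04), 0.89 ± 0.13 (adjusted p = 3.49e-05) and 4.31 ± 0.21 (adjusted p = 8.79e-11). The phosphodiesterase Pde5a was the 1 member of 5 that did not pass (0.23, adjusted p = 0.0589).

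Bile acid transport and sensing genes that passed were all higher in the ascending colon. Of 12 genes tested, 7 were higher and 0 lower, with a median of 1.16, against 14.3% higher among all genes, and 7 had every ascending library above every descending one, against 5.62% of all genes. Slc10a2, the apical sodium-bile acid transporter best known from the ileum, lay at 39.3 to 65.7 FPKM (median 60.9) in ascending mutants, against 0 to 1.36 FPKM (median 0.94) in descending mutants. Slc51b, the beta subunit of the exporter, lay at 61.5 to 142 FPKM (median 103) in ascending mutants, against 2.58 to 25.1 FPKM (median 8.2) in descending mutants. Both transcripts were thus high in all ascending libraries and low in all descending ones (5.05 ± 0.14, adjusted p = 3.89e-14, and 3.29 ± 0.25, adjusted p = 1.54e-08). Nr1h4, the bile acid receptor FXR, was higher by 1.90 ± 0.14 (adjusted p = 9.14e-09), and Cyp3a13 (1.73), Abcc3 (1.26) and Slco2b1 (1.06) completed the 7. The counts were the same with median-of-ratios scaling and quantile normalization. Of the small intestine and Paneth cell list, 4 of 9 tested genes were higher, Slc10a2, Sis (2.42), Mmp7 (1.54) and Reg3a (1.52), and 0 lower (2 lower without cage C). Lct, lactase of the small intestine, stayed at or below 0.1 FPKM in ascending and 0.13 FPKM in descending mutants.

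Enzymes of foreign compounds followed the same direction with a few opposite members. Of 38 genes tested, 28 were higher and 5 lower (median 1.24). The glucuronosyltransferase Ugt2b5 lay at 11.8 to 43.5 FPKM (median 36.5) in ascending mutants, against 0 to 0.21 FPKM (median 0.04) in descending mutants (4.86 ± 0.19, adjusted p = 5.81e-12). The retinal dehydrogenase Aldh1a1 lay at 87.1 to 195 FPKM (median 114) in ascending mutants, against 1.9 to 7.82 FPKM (median 5.79) in descending mutants (4.24 ± 0.21, adjusted p = 1.02e-10). Higher genes in the list included P450s, carboxylesterases and glucuronosyltransferases, several of them in gene families whose members can share reads. Lower were Adh1, the class I alcohol dehydrogenase, at 13.4 to 64.5 FPKM (median 27.96) in ascending mutants, against 286 to 667 FPKM (median 592) in descending mutants (-4.14 ± 0.26, adjusted p = 1.73e-09), Cyp2f2 (-3.75), Cyp2d10 (-2.37), Cyp2d34 (-1.60) and the aryl hydrocarbon receptor Ahr (-0.32). Vitamin genes were mixed, with 9 of 26 higher and 7 lower. Amn, part of the vitamin B12 receptor complex, was higher (2.96 ± 0.14, adjusted p = 4.72e-11), as was its partner Cubn (2.08), and the folate transporter Slc46a1 was lower (-2.74 ± 0.20, adjusted p = 1.51e-08). Glutathione transferases were divided evenly, 6 higher, among them Gstk1 (1.44) and Gsta1 (1.87), and 6 lower, among them Gstm6 (-1.32) and Gsta3 (-1.30), of 20. With median-of-ratios scaling 8 were higher and 4 lower, and without cage C 3 and 7.

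Genes of fuel oxidation and of lipid synthesis differed in both directions. Of 24 genes of butyrate use, ketogenesis and fatty acid oxidation, 14 were higher and 4 lower (median 0.52), and without cage C 9 were higher and 5 lower. Pdk4, which restrains glucose oxidation, was higher by 3.63 ± 0.19 (adjusted p = 1.79e-10). The 4 lower genes were the butyrate-activating enzyme Acsm3 (-1.84 ± 0.18, adjusted p = 5.12e-07), the monocarboxylate carriers Slc5a8 (-1.10) and Slc16a3 (-1.13), and the lipid droplet protein Plin2 (-1.03). Of 15 lipid absorption genes 7 were higher and 2, Clps (-0.96) and Mttp (-0.40), lower (0 lower without cage B), and Mogat2 (1.99 ± 0.11, adjusted p = 4.46e-10) and Slc27a4 (1.86 ± 0.13, adjusted p = 9.40e-09) rose beside Fabp2. In fatty acid synthesis 4 of 16 were higher, Me1 (2.96), Acacb (1.80), Elovl6 (1.31) and Elovl1 (0.51), and 7 lower, led by the desaturase Fads2 at 16.3 to 34.4 FPKM (median 29.2) in ascending mutants, against 153 to 305 FPKM (median 203) in descending mutants (-2.99 ± 0.16, adjusted p = 2.29e-10) and by Acly, which makes cytosolic acetyl-CoA (-1.78 ± 0.12, adjusted p = 4.51e-09). Cholesterol synthesis showed 0 higher and 6 lower of 25 (median -0.23), and with median-of-ratios scaling 1 higher and 2 lower. The 6 are a smaller share than the 29.7% of all genes that were lower, and the count was 10 lower without ascending mutant B1 and descending mutant C1 and 2 without cage B. The lower members included Dhcr7 (-0.48), Msmo1 (-0.57) and Sc5d (-0.31).

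Enzymes of the O-glycan cores and those that build on them differed in both directions. Of 16 core enzymes tested, 6 were higher and 2 lower (median 0.31), with median-of-ratios scaling 9 were higher and 1 lower, and without cage A 3 were higher and 1 lower. Gcnt3, which makes core 2 and core 4 branches in mucin-producing epithelium, lay at 208 to 309 FPKM (median 237) in ascending mutants, against 19.1 to 33.4 FPKM (median 26.02) in descending mutants. Every ascending library exceeded every descending one (3.19 ± 0.12, adjusted p = 1.89e-12). The polypeptide transferase Galnt12 was higher (1.33 ± 0.12, adjusted p = 9.87e-08), as was Gcnt4 (1.81 ± 0.16, adjusted p = 1.65e-07), and the 2 lower genes were Galnt18 (-1.26 ± 0.14, adjusted p = 2.75e-06) and Gcnt1 (-0.58 ± 0.18, adjusted p = 0.0162), which lost its call with median-of-ratios scaling. C1galt1c1, the chaperone of C1galt1, did not pass (0.54 ± 0.26, adjusted p = 0.108). Among 37 enzymes of extension, fucose, sulfate and sialic acid, 8 were higher and 16 lower (median -0.36).

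Several single transferases were far apart between the regions. B4galnt1, the ganglioside GM2 synthase, lay at 87.05 to 98.6 FPKM (median 92.1) in ascending mutants, against 0.8 to 4.14 FPKM (median 1.7) in descending mutants (5.08 ± 0.16, adjusted p = 2.99e-13). B4galnt2, which makes the Sda antigen, lay at 536 to 766 FPKM (median 654) in ascending mutants, against 43.2 to 179.9 FPKM (median 89.6) in descending mutants (3.01 ± 0.21, adjusted p = 5.20e-09). St3gal1, which adds sialic acid to core 1 structures, lay at 9.26 to 24.1 FPKM (median 13.1) in ascending mutants, against 0.13 to 2.79 FPKM (median 1) in descending mutants (2.77 ± 0.25, adjusted p = 1.38e-07). All 3 were higher in the ascending colon without overlap. In the other direction, B3gnt5, the first enzyme of lacto-series glycolipids, lay at 0.33 to 1.32 FPKM (median 0.6) in ascending mutants, against 23.6 to 51.2 FPKM (median 37.8) in descending mutants (-4.43 ± 0.16, adjusted p = 2.06e-12). St3gal6, an alpha2,3-sialyltransferase, lay at 2.11 to 4.08 FPKM (median 3.25) in ascending mutants, against 31.97 to 53.7 FPKM (median 43.4) in descending mutants (-3.45 ± 0.12, adjusted p = 8.91e-13). With B3gnt7 they were lower without overlap, as was the fucosyltransferase Fut9 (-2.68). The fucosyltransferase Fut2 was higher by a small amount (0.60 ± 0.11, adjusted p = 3.98e-04).

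Secreted mucus components did not move together. Of 22 tested, 4 were higher, Retnlb (3.28), Muc2, Ang4 (1.80) and Dmbt1 (1.31), and 7 lower, Tgm3, Best2, Tff3 (-1.48), Clca1 (-1.29), Fcgbp (-0.90), Zg16 (-0.81) and Nucb2 (-0.52). Without ascending mutant B1 and descending mutant C1 the counts were 7 higher and 6 lower, and without cage C 6 and 4. Muc2, the gel-forming mucin, lay at 2516 to 7150.4 FPKM (median 5069.6) in ascending mutants, against 381 to 1358 FPKM (median 630.3) in descending mutants. Fcgbp, which binds Muc2 in the gel, lay at 149.7 to 537 FPKM (median 296) in ascending mutants, against 315 to 1089.7 FPKM (median 566) in descending mutants. Muc2 was separate in all libraries (2.79 ± 0.26, adjusted p = 2.47e-07), whereas Fcgbp overlapped and was lower (-0.90 ± 0.25, adjusted p = 0.0074). Spdef, the goblet cell maturation factor, was higher (1.89 ± 0.23, adjusted p = 4.25e-06) and Foxa2 lower (-2.50 ± 0.19, adjusted p = 1.49e-08), with Atoh1, the factor of the secretory lineage, at 0.07 (adjusted p = 0.836). Of 6 transmembrane mucins tested, Muc3a was higher (1.64 ± 0.16, adjusted p = 4.90e-07), and Muc1 (-2.14 ± 0.21, adjusted p = 5.06e-07) and Muc13 (-0.59 ± 0.19, adjusted p = 0.0199) were lower. The calls among them depended on scale: with median-of-ratios scaling 2 were higher and 1 lower, and with quantile normalization 1 was higher and 3 lower.

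Defence genes differed in both directions. Of 30 antimicrobial and acute-phase genes tested, 8 were higher and 9 lower (median -0.30), against 14.3% and 29.7% of all genes. The counts were 8 and 6 with median-of-ratios scaling and 7 and 13 without cage C. Beside Reg3b and Reg3g, Reg3a (1.52) and Sprr1a (3.20) were higher, whereas Reg4, another lectin of the family, was lower at 3.38 to 93.04 FPKM (median 16.4) in ascending mutants, against 74.8 to 584 FPKM (median 307) in descending mutants (-4.04 ± 0.52, adjusted p = 1.08e-05). Ly6g, a GPI-anchored protein used as a neutrophil marker, lay at 0 to 0.72 FPKM (median 0) in ascending mutants, against 72.03 to 206 FPKM (median 124) in descending mutants (-6.67 ± 0.20, adjusted p = 1.18e-13). The neutrophil genes S100a8, S100a9 and Csf3r stayed at or below 3.35, 6.72 and 0.71 FPKM in ascending mutants and at or below 0.45, 1.69 and 0.46 FPKM in descending mutants. Wfdc2 (-3.32 ± 0.30, adjusted p = 1.58e-07) and Pla2g5 (-2.25 ± 0.15, adjusted p = 4.84e-09) were lower. Lypd8, which keeps flagellated bacteria from the epithelium, was among the most abundant transcripts in both regions, at 4151 to 8127 FPKM (median 5555) in ascending mutants, against 1924 to 9193 FPKM (median 5422) in descending mutants (0.13 ± 0.33, adjusted p = 0.766). With quantile normalization its difference was -1.05 (adjusted p = 1.97e-05), so no direction is given for it. Of 10 oxidase genes, Duox2 was higher (0.74 ± 0.16, adjusted p = 0.00184) and Nox1 (-2.24 ± 0.20, adjusted p = 1.08e-07) and its organiser Noxo1 (-0.61 ± 0.10, adjusted p = 1.59e-04) were lower.

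Interferon-stimulated genes were nearly all higher in the ascending colon. Of 33 tested, 31 were higher and 0 lower in the ascending colon (median 1.54), and the same counts were found with median-of-ratios scaling, with quantile normalization, without cage A and without ascending mutant B1 and descending mutant C1, while 26 were higher without cage C. Their summed level lay at 450.5 to 1504 FPKM (median 885) in ascending mutants, against 197 to 328 FPKM (median 269.8) in descending mutants, without overlap. Ifit1 lay at 17.7 to 96.03 FPKM (median 51.1) in ascending mutants, against 0.37 to 3.49 FPKM (median 2.67) in descending mutants (3.72 ± 0.35, adjusted p = 2.42e-07). Irf7, the transcription factor that amplifies the response, lay at 54.2 to 181 FPKM (median 106) in ascending mutants, against 9.89 to 25.7 FPKM (median 19.5) in descending mutants (2.44 ± 0.19, adjusted p = 2.00e-08). Both were separate in all libraries, and Ifit1 differed by 2.74 in cage A, 3.36 in cage B and 4.94 in cage C. Oas3 (3.80 ± 0.24, adjusted p = 2.25e-09), which makes oligoadenylates that activate RNase L, and Ddx60 (2.83 ± 0.23, adjusted p = 4.62e-08) were separate as well. Of 30 MHC class II and interferon-gamma genes, 13 were higher and 0 lower (median 0.39), and without cage C 7 were higher. The 13 included Gbp8 (1.09 ± 0.18, adjusted p = 1.50e-04), Irgm1 (1.09 ± 0.17, adjusted p = 7.11e-05) and Igtp (1.51 ± 0.27, adjusted p = 2.83e-04), and the class II gene H2-Aa did not pass (-0.18 ± 0.38, adjusted p = 0.735). B2m, the light chain of MHC class I, lay at 838 to 1449 FPKM (median 1050.4) in ascending mutants, against 76.4 to 474 FPKM (median 282) in descending mutants, without overlap (adjusted p = 2.95e-05).

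Markers of T cells moved with these groups. Of 11 tested, 10 were higher and 0 lower (median 0.99), and Itgae alone did not pass (0.39, adjusted p = 0.129). The summed level of the 14 markers in the table lay at 17.2 to 65.2 FPKM (median 33.9) in ascending mutants, against 3.62 to 9.67 FPKM (median 6.88) in descending mutants. Gzma, a granzyme of cytotoxic lymphocytes, lay at 2.65 to 16.8 FPKM (median 6.29) in ascending mutants, against 0 to 0.59 FPKM (median 0) in descending mutants (2.77 ± 0.26, adjusted p = 2.80e-07). Gzmb (2.08 ± 0.14, adjusted p = 5.83e-09) and Cd8a (1.49 ± 0.15, adjusted p = 4.91e-07) were likewise separate in all libraries. Whether more T cells or their products play a part in the interferon-stimulated level was not tested.

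**Figure D3:**
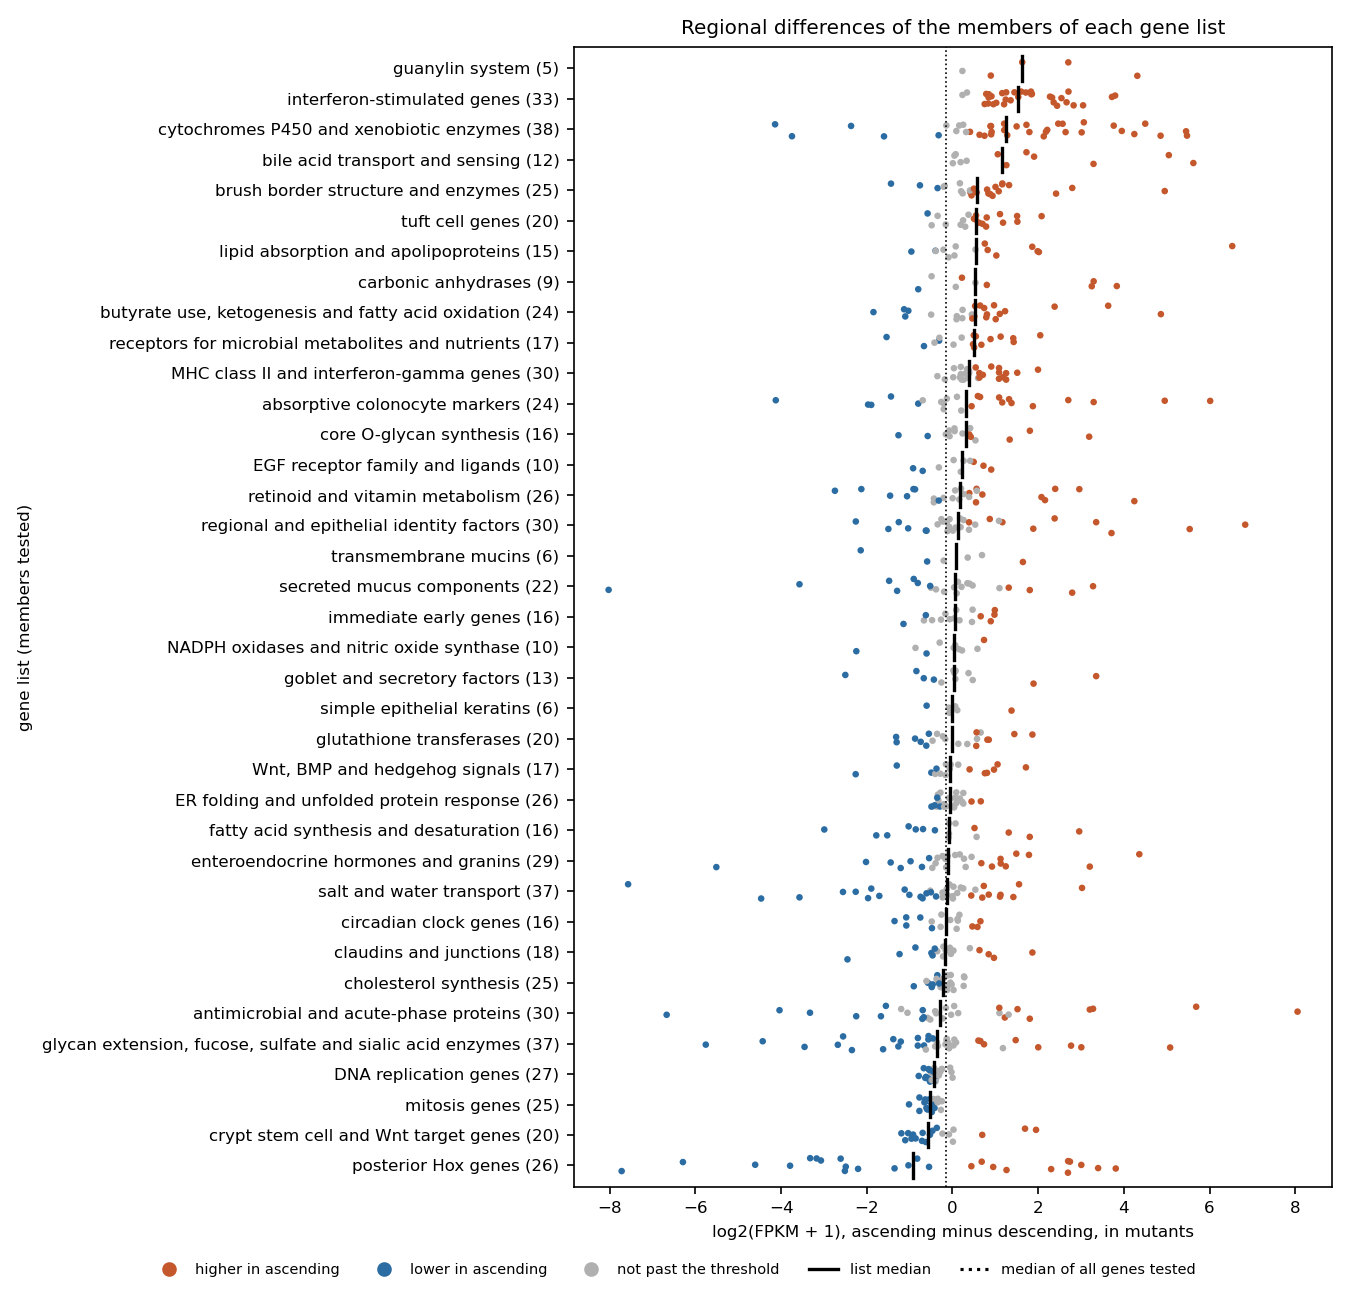
Log2 difference in log2(FPKM + 1), ascending minus descending, of each tested member (points) of 37 gene lists, with the list median as a bar, the median of all genes tested as a dotted line at -0.16, and the colour showing whether a member was past the threshold. Interferon-stimulated genes, the guanylin system, bile acid genes and xenobiotic enzymes lie farthest to the right, and Hox genes, stem cell and cell division genes farthest to the left.

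Gut hormone genes differed in both directions. Of 29 hormone and granin genes, 9 were higher and 7 lower (median -0.11), against 14.3% and 29.7% of all genes. Insl5, a hormone of distal L cells, lay at 0 to 1.46 FPKM (median 0.755) in ascending mutants, against 17.5 to 168 FPKM (median 76.9) in descending mutants (-5.51 ± 0.34, adjusted p = 1.15e-09). Nts, neurotensin, lay at 7.43 to 35.9 FPKM in ascending mutants and was listed at 0 in all 8 descending ones. Sct, secretin, lay at 20.02 to 35.5 FPKM (median 26.9) in ascending mutants, against 1.28 to 3.1 FPKM (median 2.11) in descending mutants (3.20 ± 0.13, adjusted p = 9.95e-12). Chga, a granin of most enteroendocrine cells, was higher (1.78 ± 0.13, adjusted p = 8.31e-09), Pyy was lower (-2.02 ± 0.19, adjusted p = 3.25e-07), and Gcg, the proglucagon gene of the same L cells, overlapped (0.06 ± 0.25, adjusted p = 0.86). Among receptors for microbial products and nutrients, 10 of 17 were higher and 3 lower (6 and 2 without cage C), with Tlr2 (2.05 ± 0.13, adjusted p = 1.38e-09), Ffar4 (1.43 ± 0.19, adjusted p = 1.38e-05) and the flagellin receptor Tlr5 (1.12 ± 0.15, adjusted p = 1.26e-05) higher and the short-chain fatty acid receptor Olfr78 (-1.54 ± 0.22, adjusted p = 3.38e-05), Nod1 (-0.67) and Tlr1 (-0.31) lower. Tuft cell genes were higher in 12 and lower in 1 of 20 (median 0.54), among them the taste channel Trpm5 (1.18 ± 0.12, adjusted p = 1.02e-06) and Sh2d7 (1.51 ± 0.14, adjusted p = 1.86e-07), while Hpgds was lower (-0.58 ± 0.14, adjusted p = 0.00278).

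The apical surface differed as well. Brush border genes were higher in 16 and lower in 3 of 25 (median 0.56), the 3 being Anpep (-1.44), Vill (-0.76) and Baiap2l1 (-0.35). Alpi, intestinal alkaline phosphatase, lay at 27.7 to 70.3 FPKM (median 45.96) in ascending mutants, against 0 to 1.58 FPKM (median 0.34) in descending mutants (4.95 ± 0.19, adjusted p = 3.44e-12). Ggt1, the glutathione-cleaving gamma-glutamyltransferase, was also higher (2.79 ± 0.14, adjusted p = 1.39e-10). Among 18 claudin and junction genes, 4 were higher, Cldn15 (1.86), Cldn23 (0.97), Cldn4 (0.84) and Cldn3 (0.63), and 6 lower, led by the barrier claudin Cldn8 (-2.45 ± 0.33, adjusted p = 1.69e-05) and Cldn14 (-1.24). The pore-forming Cldn15 overlapped in part (1.86 ± 0.27, adjusted p = 3.40e-05). With median-of-ratios scaling the junction list counted 5 higher and 2 lower, without cage C 2 higher and 5 lower, and without cage A or cage B 4 higher and 3 lower.

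Cell division genes that passed were all lower in the ascending colon, by small amounts, and their number depended on scale and cage. Of 25 mitosis genes 0 were higher and 18 lower (median -0.53), and of 27 DNA replication genes 0 were higher and 12 lower (median -0.43). Of all genes tested, 29.7% were lower. These counts depended on scale: with median-of-ratios scaling 8 and 7 were lower, and with quantile normalization 7 and 4, with 0 higher in each. Of all 12203 genes tested, 2293 and 2282 were lower in these settings. Without cage C 3 mitosis genes were lower, with 2139 of all 12193 genes. Without cage A 4 DNA replication genes were lower, with 3120 of all 12281 genes. These 3 and 4 genes, and the 4 with quantile normalization, are smaller shares than those of all genes. Mki67 lay at 17.9 to 41.7 FPKM (median 31.4) in ascending mutants, against 45.5 to 88.7 FPKM (median 54.7) in descending mutants. It was separate in all libraries (-1.01 ± 0.17, adjusted p = 1.42e-04), and the kinase Plk1 overlapped (-0.77 ± 0.19, adjusted p = 0.00375). Of 20 crypt stem cell and Wnt target genes, 3 were higher, Prom1 (1.95), Cd44 (1.69) and Msi1 (0.69), and 13 lower, among them Lgr4 (-0.96 ± 0.11, adjusted p = 2.21e-06) and Lrig1 (-0.92 ± 0.13, adjusted p = 1.98e-05). Lgr5, the marker of cycling stem cells, lay at 0.38 to 1.08 FPKM (median 0.74) in ascending mutants, against 0.38 to 1.23 FPKM (median 0.815) in descending mutants (-0.08 ± 0.12, adjusted p = 0.613). The morphogen Bmp2 was lower (-2.26 ± 0.20, adjusted p = 1.69e-07), and Bmp3 higher (1.71 ± 0.16, adjusted p = 3.11e-07). In the clock list, Clock (-1.08), Arntl (-1.08), Per2 (-1.35), Per3 (-0.75) and Npas2 (-0.48) were lower and Cry1 (0.65), Nfil3 (0.58) and Nr1d2 (0.46) higher, and without cage B 0 were higher and 4 lower. The labels do not state the hour of dissection.

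Markers of the wall below the epithelium also differed. Of 14 smooth muscle genes, 13 were lower and 1, Mylk, higher (0.80 ± 0.13, adjusted p = 1.36e-04), with a median of -1.49. Their summed level, over 15 genes in the table, lay at 40.7 to 109 FPKM (median 66.7) in ascending mutants, against 80.1 to 411 FPKM (median 176) in descending mutants, with overlap in cage A. Vil1 of the epithelial brush border alone had medians of 353 FPKM in ascending and 264 FPKM in descending mutants, above those of this sum. Without cage C 8 of the smooth muscle genes were lower. Tagln differed by -2.34 ± 0.40 (adjusted p = 1.79e-04). Of 17 fibroblast and matrix genes 10 were lower and 1, Fbn1 (0.50), higher, and their sum lay at 23.0 to 85.8 FPKM (median 45.7) in ascending and 26.4 to 145 FPKM (median 73.8) in descending mutants. With median-of-ratios scaling 6 were lower, with quantile normalization 4, and without each cage in turn 3 to 5. The share of wall in each piece and its part in the regional differences were not tested. Among 4 tested genes of interstitial cells of Cajal, the chloride channel Ano1 lay at 5.63 to 14.2 FPKM (median 7.7) in ascending mutants, against 63.4 to 150.3 FPKM (median 84.5) in descending mutants (-3.18 ± 0.18, adjusted p = 3.26e-10). Thbs4 lay at 2.94 to 19.1 FPKM (median 6.26) in ascending mutants, against 109 to 259 FPKM (median 170.2) in descending mutants (-4.57 ± 0.28, adjusted p = 1.22e-09). The defining receptor Kit went the other way (0.73 ± 0.16, adjusted p = 0.00138), as did Entpd2 (0.73). Macrophage markers were lower in 3 of 9, near the 29.7% of all genes, namely Cd14 (-1.08), Mrc1 (-0.86) and C1qb (-0.61), with sums of 19.02 to 84.3 FPKM in ascending and 35.5 to 111 FPKM in descending mutants. Other lists were short. Lower were Lyve1 (-1.06) and Prox1 (-0.40) of 3 lymphatic vessel genes tested, and Vwf (-0.75) and Plvap (-0.58) of 4 blood vessel genes. Uchl1 (-0.83) was the only 1 of 5 genes of neurons and glia to pass, and it was lower. So were Cma1 (-1.41), the only mast cell gene tested, and Krt15 (-0.62), 1 of 2 squamous epithelium genes. Ltb (0.53) was the only 1 of 3 B cell genes to pass and Prdm1 (1.10) the only 1 of 3 plasma cell genes, both higher. The list medians were -0.07 for B cells and 0.17 for plasma cells, and both sums overlapped between regions. Cidec, of lipid droplets, was higher (3.07 ± 0.15, adjusted p = 8.28e-11) while the adipocyte marker Adipoq did not pass (0.64, adjusted p = 0.0667). The elastase Cela1 was lower (-3.52 ± 0.29, adjusted p = 4.44e-08).

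**Figure D4:**
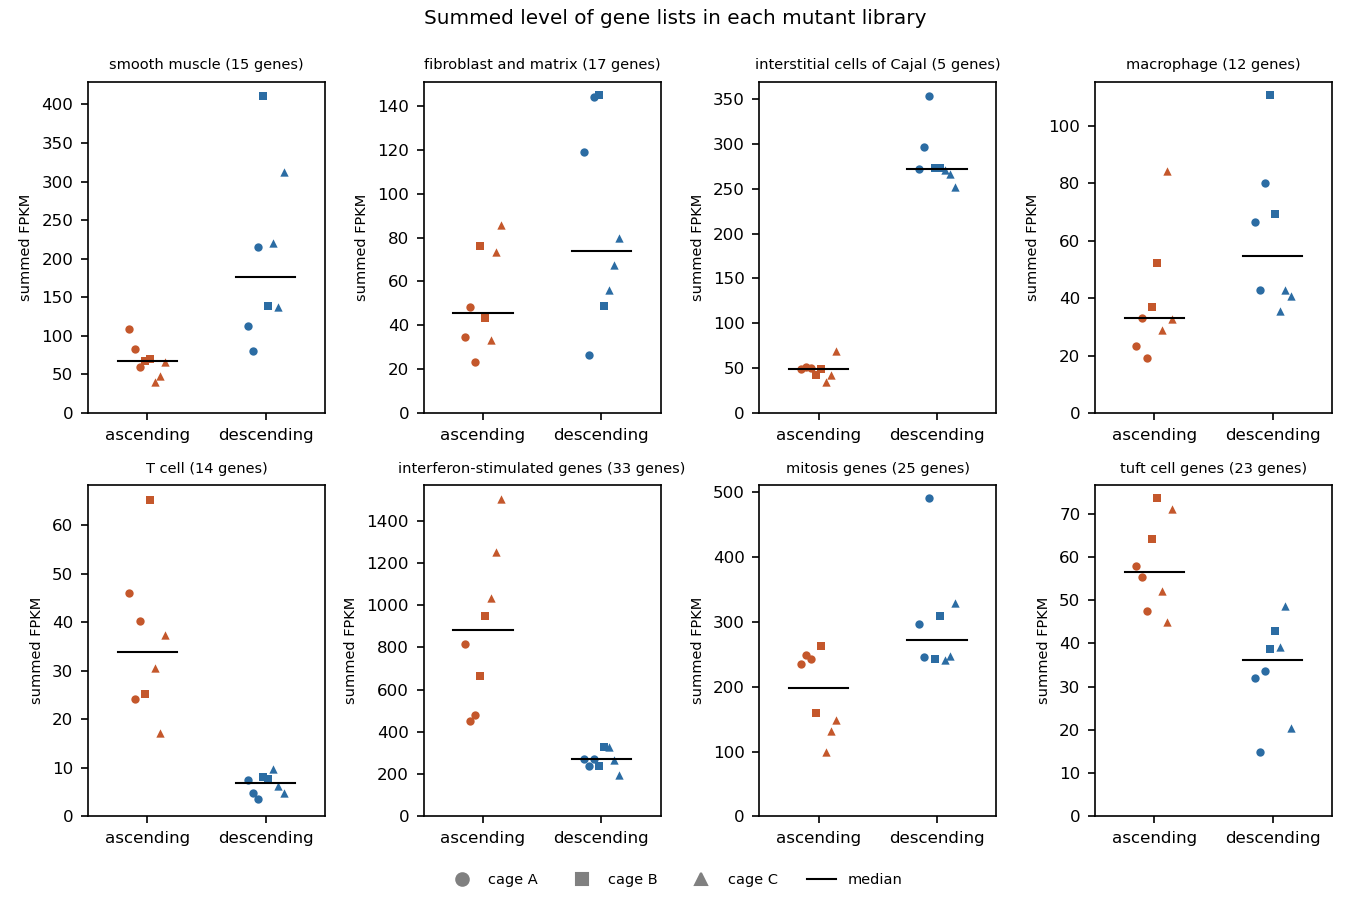
Summed FPKM of 8 gene lists in each of the 16 mutant libraries, ascending left of descending, with the cage as the marker shape and the median as a line. T cell, interferon-stimulated and interstitial cell sums do not overlap between regions, and smooth muscle, fibroblast, macrophage, mitosis and tuft cell sums do. The interstitial cell sum follows Ano1 and Thbs4, while Kit and Entpd2 of the same list were higher in the ascending colon. This sum is therefore not a measure of that cell type.

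The regional difference was set against the 3 cages. The test of region by cage passed for 1 of 12203 genes (0.00819%), Sfrp1, a secreted Wnt antagonist, while 1015 genes (8.32%) had an unadjusted p under 0.05. Sfrp1 differed by 0.18 in cage A, -2.34 in cage B and -2.09 in cage C (adjusted p = 0.042, limma moderated F test). The next genes by p were not past the threshold. Psca differed by 0.30, 1.77 and 3.45 in cages A, B and C, Ceacam2 by -0.39, 1.40 and 1.31, Pcx by -2.36, -1.92 and -0.91, 2010003K11Rik by -1.47, -0.07 and 1.05, and Mptx1 by -10.65, -6.03 and -5.28. Because the ascending libraries of cage A were the shallowest, the count was repeated without that cage, and 1422 genes were higher and 3120 lower. This does not remove the lower depth of several ascending libraries of the other cages. The region-by-cage count itself ran from 0 to 15 when single libraries were left out, with 15 without ascending mutant B2 and 12 without descending mutant A2. It was 0 without any 1 of ascending mutants A2, A3, C1, C2 and C3 or descending mutants A1, A3, B2, C1 and C3. In those runs Sfrp1 lost its call, and without ascending mutant A1 only Psca passed. Of 252 genes named and past the threshold for region, 19 lost the call without at least 1 of the 16 libraries: Atf6, Baiap2l1, C1qb, Car9, Ceacam2, Creld2, Cry1, Egr1, Ier3, Ltb, Msmo1, Nfil3, Nr1d2, Nucb2, Pdia5, Per3, Prox1, Sc5d and Zg16. Their adjusted p ran from 0.0231 to 0.0488 with all libraries and reached at most 0.104 without 1.

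The same regions were compared in the controls. Over 14 control libraries, 4744 of 12515 genes tested (37.9%) passed, 1598 higher and 3146 lower. These libraries include ascending control B1 and descending control A2, which earlier results of these data found to deviate. The control differences and errors below include both, and without both 5348 genes passed. Of the 1748 genes higher in mutants, 1735 were tested in controls, 1724 had the same sign and 1362 passed as higher. Of the 3620 genes lower in mutants, 3604 were tested, 3583 had the same sign and 2529 passed as lower. Reg3b differed by 8.05 ± 0.55 in mutants and 7.68 ± 1.05 in controls, Hoxb13 by -7.72 ± 0.17 in mutants and -7.20 ± 0.41 in controls, and Slc51a by 5.62 ± 0.09 in mutants and 5.17 ± 0.46 in controls. The test of the difference between genotypes, over 12353 genes in all 30 libraries, passed for 0 (0%), with 206 genes (1.67%) at an unadjusted p under 0.05 and a lowest adjusted p of 1.00. The count was 0 in every alternative run, including the one without ascending control B1 and descending control A2, in which 736 genes had an unadjusted p under 0.05. The smallest p belonged to Tbc1d2b, with a difference of differences of -0.63 ± 0.16 (unadjusted p = 5.03e-04), Ano1 (-0.84 ± 0.23, unadjusted p = 0.00105), C4bp (-0.76 ± 0.22, unadjusted p = 0.00155), Adss (0.46 ± 0.13, unadjusted p = 0.0017), Nr3c1 (0.42 ± 0.13, unadjusted p = 0.00231) and Tbc1d10c (-0.93 ± 0.28, unadjusted p = 0.00261), all from limma over all 30 libraries. A p that misses the threshold does not show that the regional differences of the genotypes are equal.

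**Figure D5:**
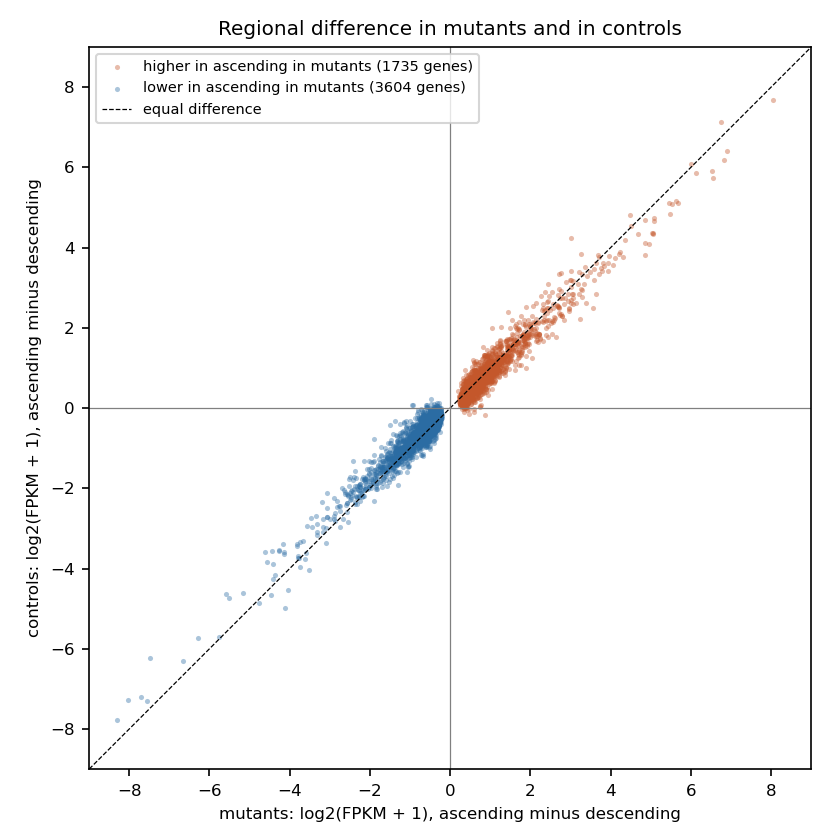
Regional log2 difference in log2(FPKM + 1) in 16 mutant libraries (horizontal axis) and in 14 control libraries (vertical axis) for the genes past the threshold in mutants that were tested in controls, with the line of equal difference. Of the 1735 higher and 3604 lower genes, 1724 and 3583 lie on the same side of 0 in controls.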

How the data were processed

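Ribosomal RNA-depleted total RNA of ascending and descending colon was sequenced as single reads of 50 nt, per the labels' protocols. The submitters' processing notes name bcl2fastq 2.17, STAR, DESeq2 and build GRCm38/mm10. Counter, strand setting and annotation release were not given in the sources used here. The authors deposited FPKM for 14475 genes in 30 libraries, nearly all protein-coding and none mitochondrial, and 0 columns of the table were left unused. Depth was estimated from the spacing of the lowest FPKM values of genes of 300 to 2500 nt, with 74.4 to 83.7% of values in mutants within 0.2 of a whole read. FPKM is not a count, so no count test was run.

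Values were analysed as log2(FPKM + 1) for genes averaging 0.5 FPKM or more, which understates the change of low genes, with limma 3.58.1 in R 4.3.3: a linear model of region and cage with moderated statistics and a trend, and Benjamini-Hochberg adjustment over all genes tested. Errors of log2 differences are standard errors, with n = 8 libraries per region in mutants and n = 7 in controls. Those of differences of differences come from the fit of all 30 libraries. Region by genotype was fitted over all 30 libraries, region by cage over 16. The code was tested on simulated data. Alternatives were pseudocounts, filters, 2 scalings, robust moderation, array weights, no cage term, a replicate block, 1 fit of all libraries, and leaving out cages or libraries.

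The members and gene lists were chosen with earlier results of these data known. Genes were named where they had the 12 largest rises or falls (mean of at least 1 FPKM, the same direction in 3 cages), up to 4 per list by smallest adjusted p with both directions shown, and 6 for each interaction test, with C1galt1 and B3gnt6. Some genes that the rule names are not reported here. Other genes, such as single Hox, channel, mucus and clock genes and the regional genes in the closing section, were chosen after their values were seen. Promoters are from RefSeq on GRCm38.p6. Reads of close paralogs (the Reg3, Ifit3, Apol9, Ugt and P450 families) may be shared between them.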

Additional observations from a re-analysis of the deposited data

Results flagged for a closer look

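For each gene named and for the library measures, the 8 libraries of a region were searched for a library that stood apart from the rest, by a gap to its nearest neighbour of more than 0.526 of the whole range on the log2(FPKM + 1) scale for genes (Dixon's critical value for 8 samples). Of 558 groups of 8 values, 58 held such a library, and chance alone gives about 1 in 20 groups. Descending mutant C1 was the library in 23 of them and ascending mutant B1 in 10, and these 2 libraries also stood apart on the second principal component. Values in brackets are FPKM.

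Descending mutant C1 held the highest values of Abca12 (0.11), Ano1 (150.3), Cyp2d34 (376), Cyp4b1 (0.5), Hoxc6 (0.06), Nr1i3 (5.99), Per3 (38.9) and Slc51a (0.13), and the lowest values of Adh1 (286), Aldh1a1 (1.9), Cdx1 (126), Cldn4 (25.2), Cldn8 (18.5), Clps (3.25), Dhcr7 (18.5), Entpd2 (5.24), Guca2b (2.56), Krt18 (187), Lypd8 (1924), Slc27a4 (7.68), Slc5a8 (47.6), Sycn (392) and Wfdc2 (60.4). Ascending mutant B1 held the highest values of Egr1 (52.8), Ern1 (16.6), Hoxb6 (176) and Tbx3 (31.03), and the lowest values of C1galt1c1 (11.5), Car13 (7.58), Creld2 (7.37), Prom1 (71.7), Slc51a (33.8) and Sptssb (89.1). Counts of genes higher and lower without these 2 libraries were 1858 and 4007.

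Descending mutant A3 held the highest values of Adipoq (0.75), Foxa2 (38.8), Pdia5 (37.1) and Sptssb (2.41). Descending mutant A1 held the highest values of Gzma (0.59) and Slc13a1 (0.17), and the lowest values of Fut9 (2.47) and Hoxd13 (41.1). Ascending mutant C2 held the highest values of Itih2 (0.08), S100a8 (3.35) and S100a9 (6.72). Descending mutant B2 held the highest value of B3gnt6 (0.06), and the lowest value of Tbc1d2b (9.51). Descending mutant A2 held the highest values of Cyp2c65 (5.73) and Prdm1 (3.62). Ascending mutant C3 held the highest values of Hoxa13 (6.56) and Hoxb13 (1.04). Ascending mutant B2 held the highest value of Ahr (6.6). Ascending mutant A3 held the highest value of Atp12a (0.51). Descending mutant B1 held the highest value of Plvap (4.77). Descending mutant C3 held the highest value of Sis (0.07). Ascending mutant A1 held the lowest value of Tbc1d10c (0). Ascending mutant C1 held the highest value of Tlr5 (9.72). Descending mutant A2 also stood apart in the number of genes above 0, 13815, and so in the number listed at 0, 660.

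Some regional differences varied between the 3 cages in these libraries, and of these only Sfrp1 passed a test for it. Sfrp1 differed by 0.18 in cage A, -2.34 in cage B and -2.09 in cage C. Its test of region by cage passed with all libraries (adjusted p = 0.042, limma), and the call was lost in many runs without a single library. In 3 further genes the libraries of both regions were separate within cages but in opposite directions. With so few libraries per region in a cage, such separation can arise by chance, and how often was not computed. 2010003K11Rik differed by -1.47 in cage A and 1.05 in cage C, Ceacam2 by -0.39 in cage A and 1.40 in cage B, and Krt8 by -0.19 in cage B, against -0.07 in cage A and 0.49 in cage C. None of these 3 passed the test of region by cage (adjusted p = 0.137, 0.0601 and 0.664).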

How the results depend on the processing

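Over 12203 genes the count higher in the ascending colon stayed within 1.5 times of 1748 under every alternative run, and that of lower genes, 3620, fell to 2293 with median-of-ratios scaling, 2282 with quantile normalization and 2139 without cage C. Leaving out each mutant library in turn gave 1594 to 1879 higher and 3144 to 4084 lower genes. The region-by-genotype count was 0 throughout, with 147 to 1196 genes at an unadjusted p under 0.05, most of them with array quality weights. The region-by-cage count of 1 became 3 with a pseudocount of 0.1 (Mptx1, Mettl7a3 and Padi2), 0 with a mean of at least 2 FPKM, 3 with median-of-ratios scaling (Psca, Sfrp1 and Ceacam2), 2 with quantile normalization (Psca and Sfrp1) and 148 with array quality weights, whose estimation stopped before it converged, and ran from 0 to 15 when libraries were left out. In controls 3860 to 5468 genes passed when libraries were left out, against 4744, and 5348 without ascending control B1 and descending control A2. The causes were not tested. Of 252 named genes past the threshold, 200 stayed past it in the same direction in all alternatives. Lypd8 reversed with quantile normalization, at -1.05. Calls were lost with median-of-ratios scaling for Ahr, Atf6, Baiap2l1, C1qb, Creld2, Ern1, Gcnt1, Herpud1, Krt18, Msmo1, Muc13, Npas2, Nucb2, Per3, Prox1, Sc5d, Tlr1 and Zg16.

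With the replicate block, in which the 8 cage and number labels took the place of cage, 1728 genes were higher and 3491 lower, 4 named genes lost the call, and the region-by-genotype count was 0. Same-numbered libraries correlated in their deviations from the group means by -0.26 to 0.36, and 4 of 8 numbers matched best with themselves. These were A1 (0.13) and the 3 numbers of cage C (0.36, 0.27 and 0.19). In cage B, with 2 libraries per region, deviations mirror each other, so B1 and B2 give a single value. With this mixed outcome and no statement in the labels, the numbers were not taken as pairs. The alternatives without ascending mutant B1 and descending mutant C1, those in controls and the list counts under other settings were chosen after seeing the data. The lower depth of the ascending libraries, most of all those of cage A, limits low genes: a gene listed at 0 there may be present below detection. In cage B the estimates were 3.54 to 6.55 M in ascending and 7.64 to 8.85 M in descending mutants. In cage C they were 3.36 to 7.76 M and 6.73 to 7.30 M.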

Other observations

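A strict rule named 10 genes with at least 5 FPKM in every ascending mutant library and under 0.5 FPKM in every descending one: Abca12, Acaa1b, Grin3a, Malrd1, Nts, Osr2, Prap1, Slc13a1, Slc51a and Ugt2b5. Malrd1 is known from bile acid control, Slc13a1 as a sulfate transporter and Abca12 as a lipid transporter. Slc13a1 lay at 7.66 to 13.9 FPKM (median 12.6) in ascending mutants, against 0 to 0.17 FPKM (median 0.04) in descending mutants (3.59 ± 0.10, adjusted p = 4.49e-14, limma). The reverse rule named 10 genes of the descending colon, 2310079G19Rik, AI854703, Casp14, Defb45, Fxyd4, Hmcn1, Hoxd13, Itih2, Nccrp1 and Sval1. Casp14, a caspase of epidermal differentiation, was listed at 0 in all 8 ascending mutant libraries and lay at 7.33 to 18.8 FPKM (median 13.3) in the descending ones (-3.74 ± 0.15, adjusted p = 8.25e-12, limma). The rule was written after values of these data had been seen, and its levels are a description.

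Lists not described above were divided. Of 24 absorptive colonocyte markers 12 were higher and 5 lower in ascending mutants (median 0.32), and the sugar phosphate exchanger Slc37a2 was lower by the largest difference among the 5 (-4.12 ± 0.78, adjusted p = 4.54e-04, limma), with -5.79 in cage A. Ceacam1 was higher (1.88 ± 0.14, adjusted p = 1.38e-08, limma). Of 6 simple keratins Krt20 was higher and Krt18 lower (-0.60), and Krt7 (0.06) and Krt8 (0.11) did not pass. In the EGF receptor family 3 of 10 were higher, Tgfa (0.90), Erbb3 (0.72) and Erbb2 (0.49), and 2 lower, Lrig1 and Areg (-0.70). Of 26 genes of folding in the endoplasmic reticulum 2 were higher, Dnajb9 (0.66) and Pdia5 (0.44), and 4 lower, Creld2 (-0.49), Herpud1 (-0.42), Ern1 (-0.36) and Atf6 (-0.29). The direction of this list depended on the setting, with 5 higher and 0 lower with median-of-ratios scaling and 1 higher and 10 lower without ascending mutant B1 and descending mutant C1. Immediate early genes, which answer to handling of tissue, were higher in 4 of 16, Fosl1 (0.99), Jun (0.98), Egr1 (0.89) and Ier3 (0.66), and lower in 2, Klf2 (-1.14) and Myc (-0.62), and without cage C 1 was higher and 2 lower. Wnt, BMP and hedgehog genes were higher in 6 and lower in 4 of 17, with Shh higher (0.97), and without cage C 4 were higher and 1 lower. Of 13 goblet and secretory factors 2 were higher, Spdef and Cdx2, and 4 lower, Foxa2, Creb3l1 (-0.84), Hes1 (-0.67) and Bhlha15 (-0.43) (4 higher and 3 lower without cage C). Of 4 haemoglobin genes and of 6 mesothelium genes 0 passed, while without cage A 3 mesothelium genes were higher and without cage C 1 haemoglobin gene was lower. The haemoglobin sum lay at 0 to 47.1 FPKM in ascending and 1.41 to 173 FPKM in descending mutants, and at an unadjusted p under 0.05 limma gave 1 haemoglobin gene, Hba-a2, and 0 mesothelium genes.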
